A study of Mus musculus with 282 samples.

Results

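The genes described are 10 transcripts of the major histocompatibility complex (MHC), found by symbol among the 49671 Ensembl genes of the deposited table. The class I members were the light chain B2m, the heavy chains H2-K1, H2-D1 and H2-T23, and the peptide transporter subunits Tap1 and Tap2. The class II members were the chains H2-Aa, H2-Ab1 and H2-Eb1 and the invariant chain Cd74. They were measured in single hematopoietic stem cells (HSCs), the cells at the root of blood formation, sorted from mouse bone marrow as LSK CD48-/lo CD150+. LSK cells lack lineage markers and carry Sca-1 and Kit.

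All cells belonged to 1 group. The animals were homozygous for rtTA, a doxycycline-dependent transactivator, at Rosa26 and for an H2B-GFP transgene, a histone fused to green fluorescent protein, at Col1a1. None received doxycycline, and there were 6 mice of 12 to 22 weeks in 2 experiments. The labels do not tie a cell to a mouse. They name a library series (L29 or L32) and an HSC code of unstated meaning, which together give 6 sets. The sets stand in for replicates here, but they are not known to be separate animals, and the spread between them, on which any p-value rests, may be technical.

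Of 282 wells, 232 cells with at least 100000 gene reads and 1000 genes were kept. They numbered 46 in L29 HSC-3, 43 in L29 HSC-4, 22 in L32 HSC-2, 44 in L32 HSC-3, 38 in L32 HSC-4 and 39 in L32 HSC-5. Gene reads per kept cell ran from 116009 to 1680710 with a median of 280096. In L29 HSC-4 the median cell had 4151 genes against 5126 to 5686 elsewhere and a median mitochondrial share of 6.66% against 3.28% to 3.73%. The check of identity listed 10 HSC markers (Hlf, Mecom, Procr, Kit, Meis1, Angpt1, Slamf1, Fgd5, Mllt3 and Ly6a). All 10 were found in at least 10% of cells, as 19.5% of all genes were. Kit, Ly6a and Slamf1 encode proteins of the sort gate, so their detection is no separate check. Detection means at least 10 CPM (counts per 1000000 gene reads), or 2.8 reads in the median cell. No molecular identifiers were used. The intervals given treat the pooled cells as independent, so they cover counting error only and leave out the spread between sets.

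Class I molecules carry peptides from inside the cell to its surface, where CD8 T cells and natural killer cells read them, and nearly all nucleated cells make them. Each is a heavy chain paired with the B2m protein, loaded with peptides that the Tap1-Tap2 transporter moves into the endoplasmic reticulum. Class II molecules are pairs of an alpha and a beta chain that show peptides from endosomes to CD4 T cells. Cd74 escorts the pair and fills its groove until H2-DM exchanges the remnant for a peptide. Class II is best known from B cells, dendritic cells and macrophages, and the coactivator Ciita switches its genes on. Nlrc5 plays the like part for class I genes.

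Transcripts of B2m and of the heavy chains H2-K1, H2-D1 and H2-T23 were present in nearly every cell at a high level. B2m was detected in 232 of 232 cells, H2-K1 and H2-D1 in 230 each (99.1%) and H2-T23 in 214 (92.2%, exact 95% interval 88.0% to 95.3%). These 4 reached 90% of cells, as 1.04% of all genes did. Mean levels per kilobase of exon were 10093 CPM for B2m, 1175 for H2-K1, 976 for H2-D1 and 231 for H2-T23. The class I members Tap1 and Tap2 were found in 55.6% and 44.0% of cells, at 37.4 and 22.3 CPM per kilobase. The 4 class II members were found in 31.0% to 49.1% of cells, at 105 to 171 CPM per kilobase. Over all kept cells, the mean share detected was 81.7% for the 6 class I members and 40.9% for the 4 class II members. The mean of the set values was 82.1% against 43.6%, a gap of 38.4 ± 16.9 percentage points (SD over sets, n = 6), and it ran from 14.4 to 61.1.

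**Figure D1:**
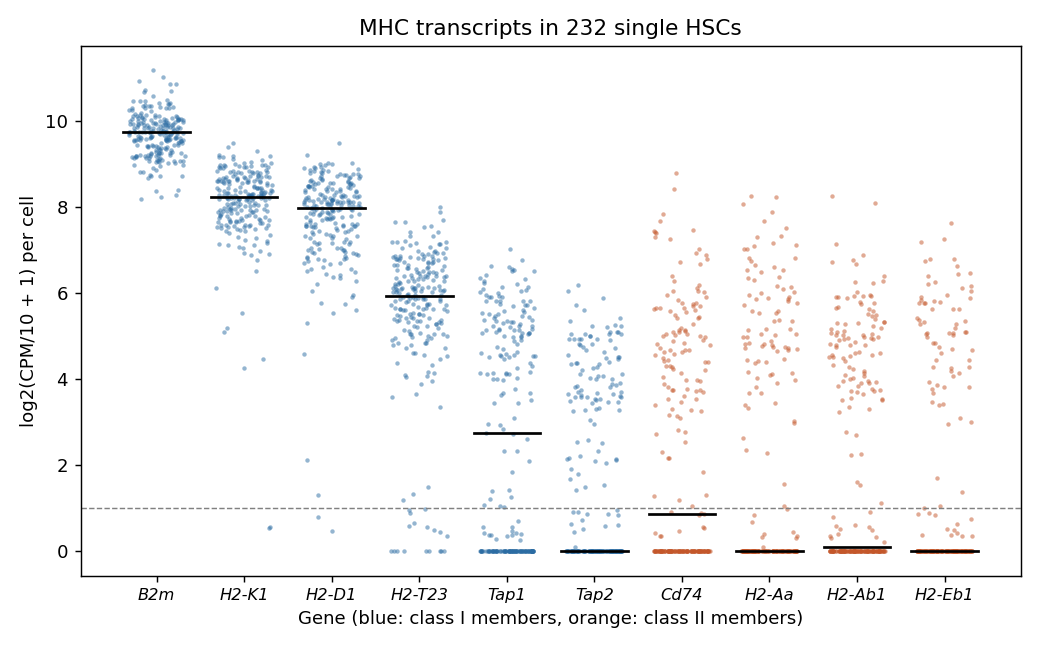
Level of each gene in each of the 232 kept cells, as log2(CPM/10 + 1), with cells as points grouped by gene; black bars are medians, and the dashed line marks 10 CPM, the detection threshold. B2m, H2-K1 and H2-D1 form bands above the line with 4 cells below it, while Cd74, H2-Aa, H2-Ab1 and H2-Eb1 spread from 0 to 1971 CPM or more.

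B2m (mm10 chr2:122147686-122153083) varied least among cells. Its lowest cell stood at 2888 CPM and its highest at 23105 CPM, and the 90th percentile of cells was 2.37 times the 10th. The 23 cells with the most B2m held 17.5% of its summed CPM. Set means were 9875 and 11008 CPM in the L29 sets and 7224, 7304, 7640 and 8091 CPM in the L32 sets, in the order given above. Both L29 sets lay above all 4 L32 sets. The share of all genes whose sets separate by library series was not computed. No result is therefore read from this order, here or for the genes below.

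H2-K1 (chr17:33996017-34000333) and H2-D1 (chr17:35262730-35267499) are the classical heavy chains, which present peptides to CD8 T cells. H2-K1 averaged 2832 and 2535 CPM in the L29 sets and 3399, 3152, 3251 and 3456 CPM in the L32 sets. H2-D1 averaged 2125 and 1815 CPM in the L29 sets and 2995, 2607, 2835 and 3077 CPM in the L32 sets. For both heavy chains the L29 sets lay below all L32 sets, the opposite order to B2m. Only 4 cells fell under 10 CPM for a heavy chain, each for 1 of the 2 genes, and all 4 were in L29 HSC-4. Their H2-K1 and H2-D1 levels were 2491 and 3.90, 4.81 and 2841, 1373 and 7.30, and 4.60 and 386 CPM, beside 9565 to 18559 CPM of B2m. These cells had 136912 to 256569 gene reads and mitochondrial shares of 6.75% to 11.7%. The part that RNA quality has in these values was not tested.

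The summed level of B2m, H2-K1 and H2-D1 had a median of 14280 CPM and took 1.43% of all gene reads. Its 90th percentile over cells was 1.93 times its 10th (18676 against 9698 CPM). H2-K1, H2-D1 and the H2-Q and H2-T genes are near-identical in places, and the sources used here do not give how reads that fit several of them were counted, so the split between these genes is uncertain.

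Upstream sequences of B2m, H2-K1 and H2-D1 are shown because these promoters lie before the most uniformly detected members. RefSeq promoter entries (build GRCm38.p6, the same as mm10) were matched for 7 of the 10 members, and 1 of the 2 entries of H2-K1 is shown. Capitals mark, in B2m, an interferon response element core (GAAA, any 2 bases, GAAA), in H2-K1 the 11 bases of a kappaB site, and in H2-D1 the same kappaB site and, further on, a Y box (CTGATTGG) on the opposite strand.
B2m, chr2:122147537-122147647, plus strand: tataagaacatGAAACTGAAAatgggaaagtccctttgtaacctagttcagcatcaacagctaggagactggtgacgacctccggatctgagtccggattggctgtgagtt
H2-K1, chr17:34000353-34000468, minus strand: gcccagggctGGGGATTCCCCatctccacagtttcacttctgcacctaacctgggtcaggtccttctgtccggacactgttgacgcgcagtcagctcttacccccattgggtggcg
H2-D1, chr17:35262914-35263054, plus strand: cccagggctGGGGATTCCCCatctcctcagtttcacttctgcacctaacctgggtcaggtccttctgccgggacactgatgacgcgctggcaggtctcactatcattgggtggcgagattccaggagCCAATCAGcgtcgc

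The kappaB site starts 125 bases before the listed start of H2-K1 and 171 before that of H2-D1, and the B2m element starts 139 bases before its start. Searched on both strands over 32851 promoters of 300 bases, the kappaB site was present in 0.0304%, the interferon response element core in 3.44% and the Y box in 4.10%. The motifs were chosen after these promoters had been seen, and a match describes letters, not a site in use. The kappaB letters were copied from the H2-K1 promoter itself, so the match there was certain. H2-K1 and H2-D1 are among the promoters counted. H2-K1 held the Y box on the opposite strand, starting 6 bases before its start and outside the stretch shown. H2-T23 also held the Y box (52 bases before its start) and the interferon response element core (124 bases before).

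H2-T23 (chr17:36029773-36032855) encodes Qa-1, a nonclassical heavy chain recognised by CD94-NKG2 receptors of natural killer cells. It was detected in 95.7% and 72.1% of cells in the L29 sets and in 100%, 97.7%, 100% and 92.3% in the L32 sets. L29 HSC-4 was the low set. In 9 of all cells no H2-T23 read was found.

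The transporter subunits were patchier. Tap1 (chr17:34187553-34197225) was detected in 129 cells (55.6%, 95% interval 49.0% to 62.1%) and Tap2 (chr17:34203527-34216321) in 102 (44.0%, 37.5% to 50.6%), at 37.4 and 22.3 CPM per kilobase. By set, Tap1 was found in 34.9% to 76.3% of cells and Tap2 in 32.6% to 55.3%, with the lowest share of both in L29 HSC-4 and the highest in L32 HSC-4. Their detection lay among that of genes of like level. Tap1 stood against a median of 59.9% over the 581 genes with a mean CPM from 20% below to 25% above its own, and 32.0% of them were detected in fewer cells. Tap2 stood against a median of 34.1% over 1517 genes, of which 79.8% were detected in fewer cells. Both proteins are needed for the transporter, but the 2 transcripts were found together in 63 cells where 58.7 were expected from their shares within sets.

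**Figure D2:**
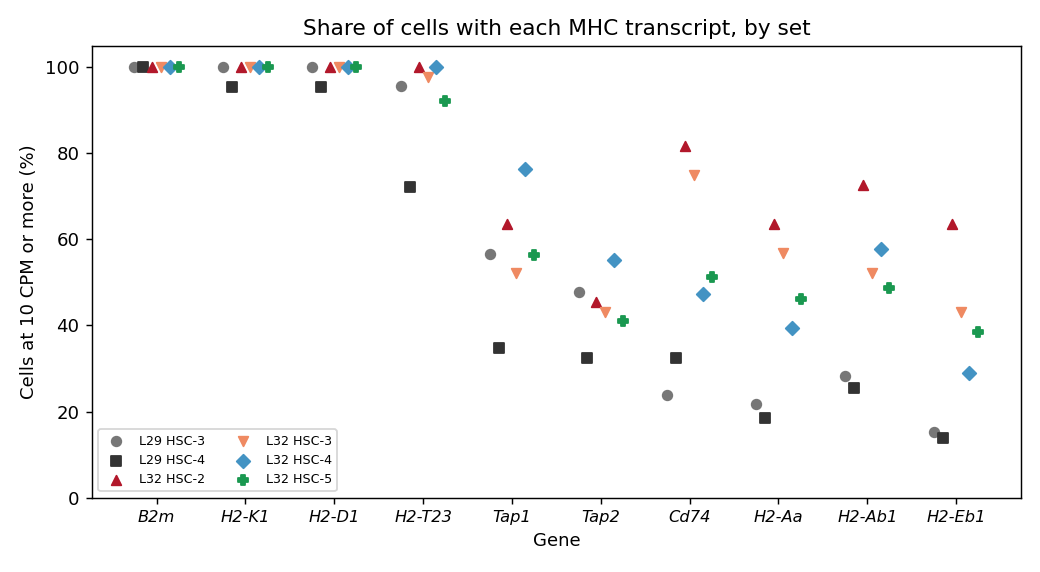
Share of kept cells at 10 CPM or more for each of the 10 genes (y axis, %), with 1 point per set. The class I heavy chains and B2m sit near 100% in 5 of 6 sets, and the 4 class II members range from 14.0% to 81.8%, lowest in the L29 sets and highest in L32 HSC-2.

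Each class II transcript was found in under 50% of cells, and at least 1 of the 4 in 162 (69.8%). Cd74 (chr18:60803848-60812646) was detected in 114 cells (49.1%, 95% interval 42.5% to 55.8%), H2-Ab1 (chr17:34263209-34269418) in 104 (44.8%, 38.3% to 51.5%), H2-Aa (chr17:34282744-34287827) in 90 (38.8%, 32.5% to 45.4%) and H2-Eb1 (chr17:34305877-34316199) in 72 (31.0%, 25.1% to 37.4%). Median levels in the cells with the transcript were 279 CPM for Cd74, 347 for H2-Aa, 286 for H2-Ab1 and 328 for H2-Eb1. The highest cells reached 4390, 3014, 3045 and 1971 CPM in that order. The cell highest in H2-Ab1, in L32 HSC-3, had 13734 genes from 206220 gene reads, against a median of 5222 genes over kept cells. Whether that well held more than 1 cell was not tested. No read at all was found in 108 cells for Cd74, 133 for H2-Aa, 116 for H2-Ab1 and 148 for H2-Eb1.

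All 4 shares were lowest in the L29 sets and highest in L32 HSC-2. Cd74 was detected in 23.9% and 32.6% of cells in the L29 sets and in 81.8%, 75.0%, 47.4% and 51.3% in the L32 sets. Its mean level was 80.2 and 122 CPM in the L29 sets and 832, 346, 113 and 236 CPM in the L32 sets. By share the L29 sets lay below every L32 set, while by mean level L32 HSC-4 lay between the 2 L29 sets.

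H2-Aa, the alpha chain of I-A, was detected in 21.7% and 18.6% of L29 cells and in 63.6%, 56.8%, 39.5% and 46.2% of L32 cells, at set means of 81.9 and 106 against 616, 376, 185 and 249 CPM. H2-Ab1, its beta chain partner, was detected in 28.3% and 25.6% against 72.7%, 52.3%, 57.9% and 48.7%, at 68.2 and 86.9 against 410, 251, 160 and 179 CPM. H2-Eb1, the beta chain of I-E, was detected in 15.2% and 14.0% against 63.6%, 43.2%, 28.9% and 38.5%, at 46.6 and 78.5 against 416, 170, 83.4 and 158 CPM. For all 3 chains, by share and by mean level, the L29 and L32 sets did not overlap, and L32 HSC-2 was the highest. How many of all genes separate by library series in this way was not computed, so nothing is read from it. The alpha chain of I-E is listed in the table as H2-Ea-ps, a pseudogene, and had no read in any of the 282 wells. A count of 0 of 232 kept cells allows, at a limit of 3 cells, a share of up to 1.29% of cells with a read.

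Upstream sequences of H2-Aa and H2-Eb1 are shown because both carry the letters of the conserved class II boxes ahead of transcripts that were found in the same cells. Capitals mark part of an X box (GCAACT), a cyclic AMP response palindrome (TGACGTCA, in H2-Aa only) and the Y box (CTGATTGG), in 5′ to 3′ order.
H2-Aa, chr17:34287853-34287933, minus strand: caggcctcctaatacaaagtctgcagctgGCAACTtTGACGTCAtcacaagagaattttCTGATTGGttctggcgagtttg
H2-Eb1, chr17:34305757-34305837, plus strand: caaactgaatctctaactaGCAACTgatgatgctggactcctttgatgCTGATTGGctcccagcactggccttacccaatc

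In H2-Aa the X box letters start 81 bases and the Y box 51 bases before the listed start, and in H2-Eb1 they start 91 and 62 bases before it. Of all 300-base promoters, 10.9% hold GCAACT, 1.79% hold TGACGTCA and 4.10% hold the Y box on either strand. The X box letters also lie 196 bases and the Y box 222 bases before the start of Tap1, so these letters are not particular to class II members.

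The class II members were detected in fewer cells than most genes of the same mean level. H2-Aa, at 238 CPM on average, was below the 64.7% median of 464 genes in that range of means, and 0.216% of those genes were detected in fewer cells. H2-Eb1, at 136 CPM, was below the 47.4% median of 986 genes, with 0.507% of them lower. Cd74, at 241 CPM, was below the 65.5% median of 461 genes, with 4.12% lower. H2-Ab1, at 172 CPM, was closer to the 54.3% median of 713 genes, with 12.1% lower. H2-T23, a class I member, was near its 93.8% median over 90 genes, with 40.0% lower.

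**Figure D3:**
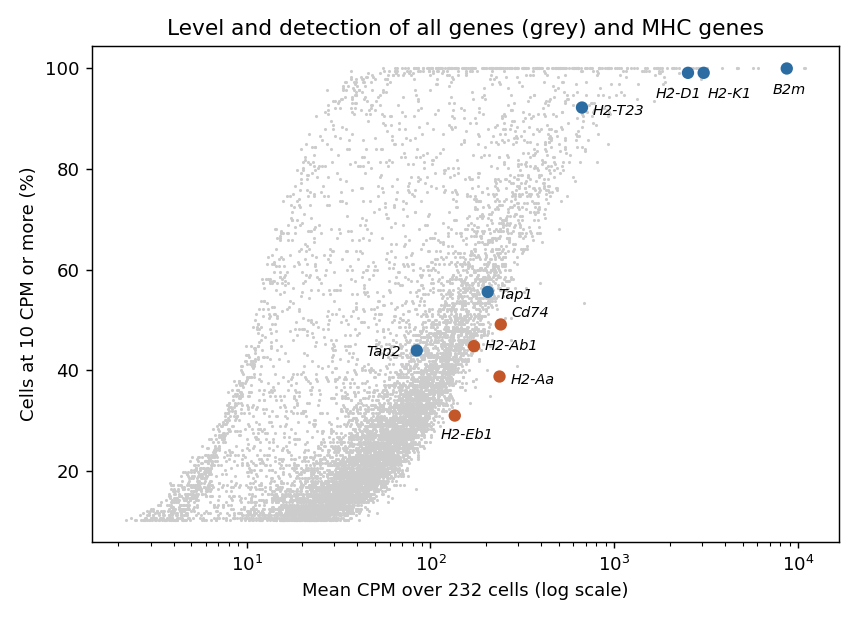
Share of cells at 10 CPM or more (y axis, %) against the mean CPM over 232 cells (x axis, log scale); grey points are the 9689 genes found in at least 10% of cells, blue points class I members and orange points class II members. H2-Aa, H2-Eb1 and Cd74 lie at the lower right edge of the cloud, and Tap1, at a mean close to theirs, lies inside it.

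The spread among cells within a set also differed between the classes. It was measured as the log2 squared coefficient of variation of CPM in excess of the running median over genes of like mean, averaged over the 6 sets, and ranked among 9689 genes. H2-Aa had an excess of 1.49 ± 0.79 (SD over sets, n = 6), above 99.8% of genes and above 0 in 6 of 6 sets. Cd74 had 1.22 ± 0.96 (above 99.2% of genes, 5 of 6 sets), H2-Eb1 0.78 ± 0.36 (above 93.0%, 6 of 6) and H2-Ab1 0.64 ± 0.92 (above 87.6%, 5 of 6). Among class I members, B2m (-0.77 ± 0.33) and Tap2 (-0.50 ± 0.25) were below 0 in every set, H2-K1 (0.01 ± 0.29), H2-T23 (-0.01 ± 0.36) and Tap1 (0.17 ± 0.18) lay near genes of their level, and H2-D1 had 0.41 ± 0.51 (above 74.3% of genes, 5 of 6 sets). The mean excess of the class II members was above that of the class I members by 1.15 ± 0.63, with all 6 sets in this direction (0.36 to 1.87). The members were chosen for this contrast, so it is given with no test.

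Class II RNA was concentrated in fewer cells than class I RNA. The 23 cells with the most held 60.2% of the summed CPM of Cd74, 62.3% of H2-Aa, 53.6% of H2-Ab1 and 62.8% of H2-Eb1. For H2-K1, H2-D1 and H2-T23 the corresponding shares were 17.6%, 19.1% and 24.4%, and for Tap1 and Tap2 they were 38.9% and 46.1%. The summed class II level had a median of 265 CPM and a highest cell of 9781 CPM, and in 61 cells it was 0. Within sets the highest 10% of cells (2 to 5 cells) held 61.2% and 53.8% of it in the L29 sets and 31.4%, 40.3%, 50.7% and 37.0% in the L32 sets, against 12.7% to 15.9% of the summed class I level. Set medians were 61.8 and 5.02 CPM in the L29 sets and 1483, 536, 282 and 346 CPM in the L32 sets.

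Class II transcripts were found in the same cells more often than their separate shares would give. All 4 were detected in 41 cells (17.7%), where 12.7 were expected if the genes were detected independently within each set, a 3.24-fold excess. None of the 4 was detected in 70 cells, where 40.1 were expected. Cells with 1, 2 or 3 of the genes numbered 56, 35 and 30, all under the expected 70.6, 67.2 and 41.4. Observed cells were thus in excess at both ends.

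**Figure D4:**
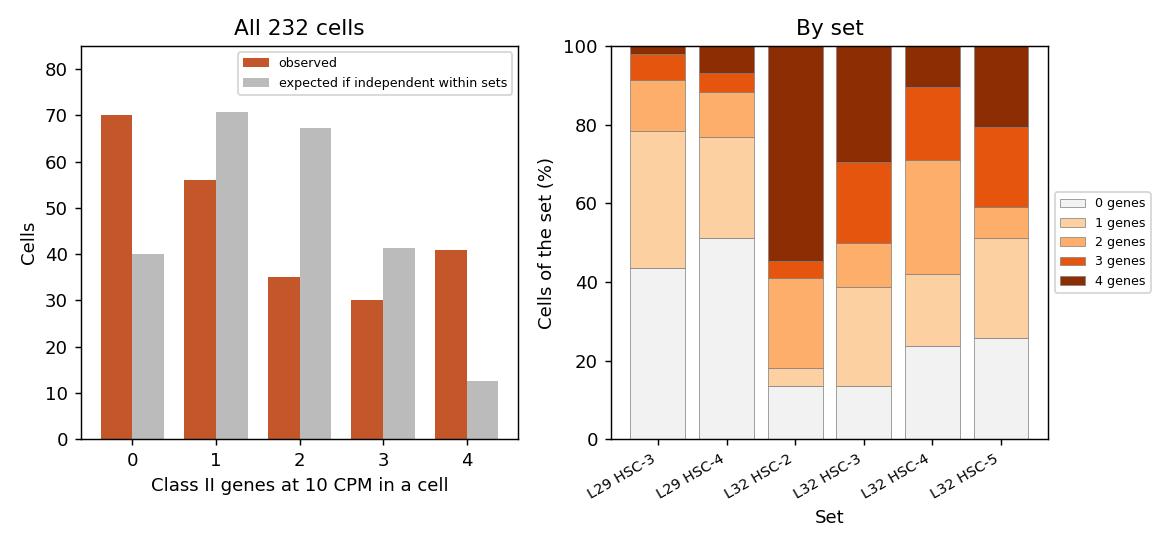
Left, number of cells (y axis) with 0 to 4 class II genes at 10 CPM (x axis), observed (orange) and expected within sets (grey); right, share of each set's cells (%) with each number of genes. Cells with 0 and with 4 genes exceed expectation, and L32 HSC-2 has 54.5% of its cells with all 4.

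By set, all 4 genes were found in 1 of 46 and 3 of 43 cells of the L29 sets and in 12 of 22, 13 of 44, 4 of 38 and 8 of 39 cells of the L32 sets. Each of the 6 sets exceeded its own expectation. The mean over sets was 20.7% ± 19.3 for all 4 genes and 28.5% ± 15.6 for none (SD, n = 6). Without L32 HSC-2 there were 29 cells with all 4 against 7.35 expected, and without L32 HSC-3 there were 28 against 8.42. L32 HSC-2, the set highest in class II, rests on 1 plate, since 0 of its 23 wells on plate 2 were kept. In the 3 sets with kept cells on 2 plates, any class II gene was found in 83.3% and 90.0% of cells of L32 HSC-3, in 65.2% and 93.3% of L32 HSC-4 and in 78.3% and 68.8% of L32 HSC-5, for plate 1 and plate 2.

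Of the cells with 1 class II gene, 24 had Cd74, 16 H2-Ab1, 11 H2-Aa and 5 H2-Eb1. At least 1 of the other 3 genes was found in 67 of the 72 cells with H2-Eb1 (93.1%), where 85.9% was expected from the shares within sets. The share was 87.8% for H2-Aa (83.2% expected), 84.6% for H2-Ab1 (79.2%) and 78.9% for Cd74 (79.2%). The most frequent group of 3 was Cd74, H2-Aa and H2-Ab1 without H2-Eb1, in 14 cells.

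With all kept cells pooled across sets, each gene was detected more often the more of the others were found. Differences between sets therefore enter these shares and the medians that follow. Cd74 was detected in 25.5% of cells with none of the 3 chains and in 91.1% of cells with all 3. H2-Aa went from 13.6% to 87.2%, H2-Ab1 from 18.6% to 87.2% and H2-Eb1 from 6.67% to 74.5%. In the cells with the transcript, levels beside all 3 others were above those of the transcript found alone. Median Cd74 was 167 CPM where it was found alone and 510 CPM beside all 3 chains, and the corresponding medians were 206 and 782 CPM for H2-Aa, 219 and 388 CPM for H2-Ab1, and 232 and 331 CPM for H2-Eb1, whose highest median, 389 CPM, was beside 2 others.

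Pair by pair, H2-Aa and H2-Eb1 were found together in 53 cells against 33.6 expected, with a Mantel-Haenszel odds ratio over sets of 6.52. The alpha and beta chains of I-A, H2-Aa and H2-Ab1, were found together in 65 cells against 45.6 (odds ratio 5.68), and Cd74 and H2-Aa in 67 against 51.5 (4.34). The 6 class II pairs had odds ratios from 4.34 to 6.52, and without L32 HSC-4 that of H2-Aa and H2-Eb1 was 10.7. Each pair was above expectation in 6 of 6 sets except Cd74 with H2-Ab1, which was above it in 5.

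Levels were also related across cells. The mean over sets of the partial Spearman rho, given the ranks of total reads and genes detected, was 0.43 to 0.50 for the 6 class II pairs, positive in 6 of 6 sets for each (232 cells, which share their library preparation within a set). The 15 class I pairs had a median of 0.10 (-0.05 to 0.27), of which 3 were positive in 6 of 6 sets. These were H2-K1 with H2-T23 (0.27), Tap1 (0.15) and Tap2 (0.14). The 24 pairs across classes had a median of 0.03 (-0.16 to 0.21), with 2 positive in 6 of 6 sets. H2-Ab1 with Tap2 was negative in all 6 sets, at -0.16 ± 0.03. The summed class I level and the summed class II level had a mean rho of 0.14 ± 0.13, positive in 4 of 6 sets.

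**Figure D5:**
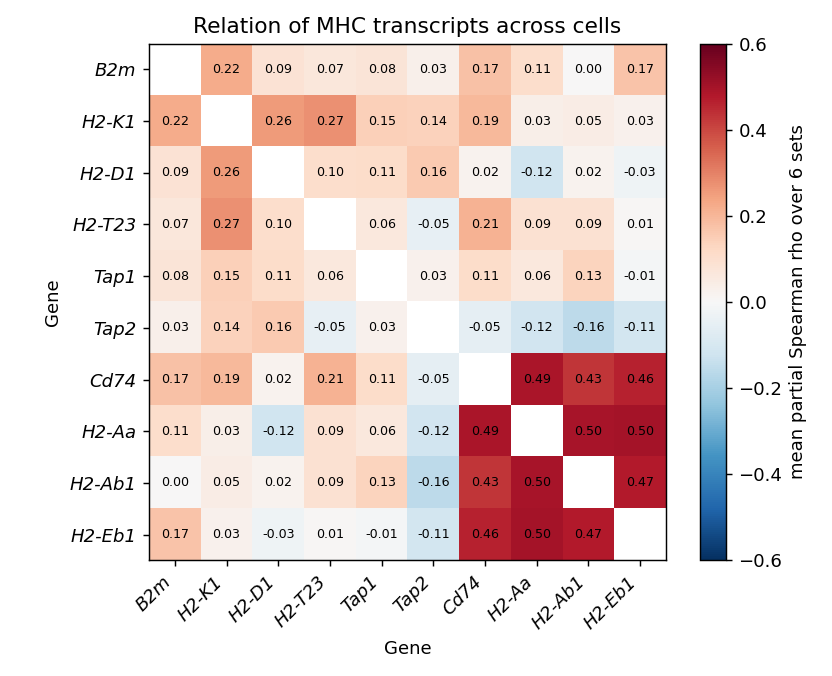
Mean over 6 sets of the partial Spearman rho across cells for each pair of the 10 genes (colour and printed value), given total reads and genes detected. The block of the 4 class II members holds values of 0.43 to 0.50, and the highest value outside it is 0.27.

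Depth and RNA quality had relations of either sign with the class II level. Within sets, its Spearman rho had a median over sets of -0.02 with total reads (-0.14 to 0.20), 0.08 with genes detected (-0.17 to 0.33) 0.06 with the mitochondrial share (-0.29 to 0.52) and -0.06 with gene reads per spike-in read (-0.11 to 0.43). The class I level had a median rho of -0.31 with genes detected and -0.30 with gene reads per spike-in read, the latter negative in 6 of 6 sets. CPM is a share of a cell's RNA, so a higher class I share and a lower RNA content of the cell cannot be told apart in CPM alone.

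Reads in near-empty wells were compared as a possible measure of background. Whether these wells held free RNA or failed cells was not tested. All of them lay in odd-numbered plate columns, as did every well of L32 HSC-2. Those of L32 HSC-3 were on plate 2, since all 24 wells of that set on plate 1 were kept. The kept cells of L32 HSC-2 were all on plate 1, so the comparison is partly across plates. In 38 wells with fewer gene reads than spike-in reads (616795 gene reads in all, 22 wells from set L32 HSC-2 and the other 16 from L32 HSC-3), Cd74 made up 40.5 CPM against 478 CPM in the 66 kept cells of the same sets, H2-Aa 37.3 against 485 CPM and H2-Eb1 56.7 against 212 CPM. H2-Ab1 reached 378 against 260 CPM, but 220 of its 233 reads lay in 1 well, and without that well it was at 22.5 CPM. Of the class I members, H2-K1 was at 1248 against 3101 CPM, H2-D1 at 472 against 2630 CPM, H2-T23 at 69.7 against 809 CPM, Tap1 at 50.3 against 213 CPM and Tap2 at 14.6 against 86.1 CPM. B2m was higher in these wells, at 11072 against 7174 CPM, and the part of free RNA in its values was not tested.

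Defining markers of the cell types best known for class II were absent or rare. Of 9 B cell markers, Ms4a1 and Ighm were found in 0 cells, Cd79a and Pax5 in 3 cells each, and the only one found in at least 10% of cells was Cd79b (24.6%). None of 13 dendritic cell and macrophage markers reached 10% of cells, and Adgre1, Cd209a, Batf3, C1qa and C1qb were found in 0 cells. Their background is that 19.5% of all 49671 genes reach 10% of cells. The summed level by set was 30.9 to 103 CPM for the B cell list and 6.86 to 55.9 CPM for the dendritic cell and macrophage list, against 2973 to 3709 CPM for the HSC list. All 3 lists were highest in L32 HSC-2, the set with the most class II RNA, but the other sets did not follow the order of class II. The B cell list was at 101 CPM in L29 HSC-4, a set low in class II. In L29 HSC-3, also low in class II, the dendritic cell and macrophage list was at 40.3 CPM. Of 7 T and NK cell markers 0 reached 10% of cells (Cd3d, Cd3g and Ncr1 in 0 cells, summed level 19.3 to 64.8 CPM by set). Of 4 endothelial markers 2 did, with Cdh5 in 0 cells (112 to 195 CPM). Within sets, the mean rho with the class II level was 0.04 for the B cell list, -0.05 for the dendritic cell and macrophage list, -0.17 for the T and NK cell list and -0.06 for the endothelial list. Of the 41 cells with all 4 class II transcripts, 0 had at least 2 B cell markers and 0 had at least 2 dendritic cell and macrophage markers. Such cells were rare throughout, at 7 and 3 of 232. All 41 had at least 3 HSC markers, as did 226 of all 232.

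The one contrast between labelled units is that of the library series. Counts were summed over the cells of each set, and 4 L32 sets were compared with 2 L29 sets by edgeR's quasi-likelihood test over 16476 genes. No gene was called at an adjusted p under 0.05 (percent called 0%), and 1433 genes had an unadjusted p under 0.05, 7 of the 10 members among them. H2-Ab1 was at 266 CPM in L32 against 79.0 CPM in L29, a log2 difference of 1.83 ± 0.32 (SE; edgeR adjusted p = 0.340). Cd74 was at 350 against 93.3 CPM (1.99 ± 0.75; edgeR adjusted p = 0.536). H2-Aa was at 357 against 99.0 CPM (1.93 ± 0.66; edgeR adjusted p = 0.498), and H2-Eb1 at 188 against 58.8 CPM (1.75 ± 0.53; edgeR adjusted p = 0.466).

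DESeq2, run on the same sums, called 410 genes (2.49% of those tested), of which 299 were higher in L32 (1.81%). Among the latter were 3 members, H2-Ab1 (DESeq2 adjusted p = 2.99e-05), H2-Eb1 (0.0306) and H2-Aa (0.0379). Cd74 (0.0632) and H2-D1 (0.0550) lay just outside its threshold. The class II calls thus depend on the test. With no filter on low counts, edgeR called 2 of 35274 genes (0.00567%) and 0 members. Of the class I members, H2-D1 had a log2 difference of 0.60 ± 0.14, H2-K1 of 0.32 ± 0.10 and B2m of -0.36 ± 0.09, beside a median over all genes of 0.07 (edgeR adjusted p = 0.369, 0.456 and 0.387). Without L32 HSC-2 the Cd74 difference was 1.34, and without L29 HSC-4 it was 2.68. The H2-Eb1 difference was 2.45 without L29 HSC-4. The library series, the experiment and the mice cannot be told apart.

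Other genes of the class I pathway were broadly present. All 14 on the list were found in at least 10% of cells and 9 in at least 50%, where 19.5% of all genes reach 10% and 4.28% reach 50%. The highest by CPM were Pdia3 (814 CPM, 87.1% of cells) and the calnexin gene Canx (473 CPM, 81.0%), of the loading complex and its chaperones, the proteasome activator subunit Psme1 (555 CPM, 94.0%) and the immunoproteasome subunit Psmb8 (427 CPM, 93.5%). Nlrc5 was found in 33.2% of cells. Of 16 other heavy chain genes, 12 reached 10% of cells, as 19.5% of all genes do. The highest were H2-Q6 (452 CPM), H2-Q7 (318 CPM), H2-T22 (178 CPM) and Fcgrt (119 CPM), the neonatal Fc receptor.

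The class II pathway was less broadly present than the class I pathway. Of 18 listed genes 9 reached 10% of cells and 1 reached 50%, where 19.5% and 4.28% of all genes do. H2-DMa, the gene at 50%, encodes the alpha chain of the peptide exchanger (58.2% of cells, 184 CPM). Its partner H2-DMb1 was found in 46.1% (105 CPM). The endosomal protease gene Ctsl was found in 46.6% (151 CPM) and the Y box binding subunit gene Nfyb in 25.4% (68.5 CPM). Ciita, the coactivator, was found in 9 cells (3.88%) at a mean of 5.96 CPM.

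Of 22 interferon pathway genes, 21 reached 10% of cells and 4 reached 50%, beside 19.5% and 4.28% of all genes. The highest were the receptor kinase gene Jak1 (435 CPM, 73.3% of cells) and the interferon-induced GTPase genes Ifi47 (240 CPM, 56.5%), Gbp7 (214 CPM, 58.2%) and Irgm1 (210 CPM, 44.8%). Between library series, edgeR called 0 of the 67 tested genes of these 4 lists in either direction. The listed genes higher in L32 numbered 9 of 14 in the class I pathway (median log2 difference 0.09), 13 of 15 other heavy chains (0.32), 13 of 16 in the class II pathway (0.56) and 19 of 22 interferon genes (0.46), beside a median of 0.07 over all genes. The share of all tested genes higher in L32 was not computed, so nothing is read from these counts. DESeq2 called 1 of the listed genes, Irf1, an interferon-induced transcription factor (edgeR log2 difference 1.32 ± 0.28, adjusted p = 0.351).

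The genes most like the class I level across cells, among 6535 found in at least 20% of cells, were H2-Q1 (mean rho over 6 sets 0.30 ± 0.15), H2-Q6 (0.26 ± 0.13), H2-Q4 (0.26 ± 0.11), the interferon-induced membrane protein gene Ifitm3 (0.25 ± 0.12) and Rsrp1 (0.25 ± 0.14). All 9 other heavy chains with a value were positive (median 0.17, against -0.01 over all genes). The H2-Q genes are near-identical in part to H2-K1 and H2-D1, so their values are uncertain. The genes most like the class II level were H2-DMb1 (0.34 ± 0.18), the Sca-1 gene Ly6a (0.24 ± 0.11), Arhgap30 (0.23 ± 0.17), Kcnk5 (0.21 ± 0.17) and Pstk (0.20 ± 0.11). Naming required a positive rho in 6 of 6 sets, which 1.93% of genes met for class I and 1.5% for class II, and nothing is read from that count. Ly6a encodes a protein of the sort gate. Its mean rho with the class I level was close to this, at 0.24 ± 0.21, positive in 5 of 6 sets. Of 14 interferon genes, 12 had a positive mean rho with the class II level (median 0.04), against 47.6% of all genes. Of these interferon genes, 0 were positive in 6 of 6 sets. The rho was positive for 4 of 7 class II pathway genes (median 0.012) and 7 of 14 class I pathway genes (0.009). Of the other heavy chains, 7 of 9 were positive (0.053). These genes share their cells and libraries, and no test was run.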

How the data were processed

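Single-cell cDNA was made with template switching and 22 PCR cycles, per the labels' protocols. The deposited values were read counts for each gene in each cell. The submitters' processing notes name GSNAP, featureCounts 1.6.2 and build mm10. The sources used here do not give how multi-mapping reads and strand were treated. ERCC spike-in counts (92 RNAs, 11.7% of all counts) and the transgene were left out of totals. CPM was computed from the deposited counts of Ensembl genes. Doublets were not called, as wells were sorted to hold 1 cell. Shares carry exact Clopper-Pearson intervals. Expected co-detection was computed within sets from each gene's share, and partial Spearman correlations within sets were averaged on the Fisher z scale.

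Set sums were tested with edgeR 4.0.16 (glmQLFit and glmQLFTest, TMM, filterByExpr, Benjamini-Hochberg over all genes). DESeq2 1.42.0 was the alternative, and others varied scaling, filters, detection threshold and sets. In data simulated for this contrast, with 17102 genes tested, edgeR recovered 185 of 200 genes changed 4-fold and made 8 false calls. The simulation gave all genes the same variability between sets and changed only genes with many reads. Its recovery therefore does not carry over to genes that vary more between sets. The members and gene lists were chosen with earlier results of these data known. Named are all members, the 4 genes of highest mean CPM of each pathway list with Ciita, Nlrc5 and H2-Ea-ps, defining genes of the marker lists (some are not reported here), and the 5 named genes most like each class level and positive in 6 of 6 sets. Predicted genes and genes without a symbol were counted, not named. Irf1 was named after its value was seen.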

Additional observations from a re-analysis of the deposited data

Results flagged for a closer look

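Of 22 values compared across the 6 sets, 5 were flagged by Dixon's test as having 1 set apart from the others. Chance flags about 1 in 20 groups of untied values. The 22 values include shares and means of the same genes and are not independent, so nothing is read from the count. In L29 HSC-4, H2-K1 and H2-D1 were each detected in 95.3% of cells against 100% in every other set, and H2-T23 in 72.1% against 92.3% to 100%. With the other sets tied at 100%, any lower share of H2-K1 or H2-D1 would have been flagged. In L32 HSC-2, mean Cd74 was 832 CPM against 80.2 to 346 CPM in the other sets, and mean H2-Eb1 was 416 CPM against 46.6 to 170 CPM.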

How the results depend on the processing

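The number of genes called between library series was 0 with edgeR, 410 with DESeq2 and 2 with no filter on low counts, and DESeq2 called 3 members and 1 pathway gene. The Tap2 difference, 0.05 on the log2 scale, was -0.032 with library totals only and ran from -0.053 to 0.21 over the leave-one-out settings, below 0 when L29 HSC-4, L32 HSC-2 or L32 HSC-4 was left out, and the cause was not tested. The gap in detection between classes over all kept cells, 40.7 percentage points, ran from 35.7 to 44.3 over the 6 leave-one-out settings and was 40.1 with each cell thinned to 100000 reads. The excess of cells with all 4 class II genes, 12.2 percentage points, ran from 10.3 to 14.8. The class II minus class I excess variance ran from 1.00 to 1.31. Leaving out 1 L29 set assumes that the remaining one varies like the L32 sets. A stricter cell filter kept 198 cells. No paired analysis was possible because all cells form 1 group and the labels pair no samples across series.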
